A study of Arabidopsis thaliana with 12 samples.

Results

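DEWAX (AT5G61590) and DEWAX2 (AT5G07580) are transcription factor genes of the AP2/ERF family, whose proteins bind DNA through an AP2 domain. Both were taken by name, 2 of 13286 genes that had a probe set of their own on the array. They were chosen by their array signals in all 4 groups, because the signal fell on dehydration and because the responses in the mutant differed in opposite directions from those in wild type. All their levels and differences are therefore a description, with no test. Each gene was read by 1 probe set. The annotation leaves 8730 of the 22746 probe sets tested unnamed. A gene said here to lack its own probe set may therefore still be on the array.

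Land plants cover their epidermis with a cuticle of cutin and waxes that slows water loss. Waxes are built from very-long-chain fatty acids, which CER enzymes of the epidermis elongate and turn into alkanes, alcohols and esters. DEWAX, for "decrease wax biosynthesis", is known in Arabidopsis as a repressor that binds promoters of wax genes, that is induced in the dark and that lowers wax load. DEWAX2 is its close relative and is likewise known as a repressor of wax synthesis.

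The 4 groups of 3 arrays each were siz1-3 plants after 2 h of dehydration, siz1-3 plants under control conditions, Col-0 plants after 2 h of dehydration and Col-0 plants under control conditions. Col-0 is the wild-type accession, and siz1-3 is a mutant allele of SIZ1, which encodes a ligase that tags target proteins with the small modifier SUMO. Plants were 3 weeks old in 11 samples and 21 days in the first Col-0 control sample, and no tissue is named in the labels, nor how the controls were handled during those hours. Nothing in them says that replicates were separate plants or cultures, so the p-values reflect only how far these samples scatter, and that scatter may be technical.

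Correlations between arrays were 0.98 to 0.991 within groups and 0.857 to 0.959 between groups. The brighter of the 2 SIZ1 probe sets lay between 81.5 and 177 on siz1-3 arrays and between 286 and 465 on Col-0 arrays, while the dimmer lay between 60.3 and 111 on siz1-3 arrays and between 2.85 and 34.2 on Col-0 arrays. Of 10 genes listed as induced by dehydration, 3 had their own probe sets. After dehydration, all 3 were called higher in siz1-3 and in Col-0, beside 15.3% and 13.5% of all probe sets. Leaf mesophyll markers were bright, with LHCB4.1, a light-harvesting protein gene, averaging 7750 to 12843 over the 4 groups. The root hair gene EXPA7 averaged 4.92 to 9.94. The beta-glucosidase gene PYK10, a root marker, averaged 477 to 964. Of the marker genes listed, 2 of 7 for epidermis, 2 of 4 for leaf mesophyll and 4 of 4 for root had their own probe sets. Summed over the epidermis pair, the guard cell lineage genes FAMA and MUTE, arrays ran from 41.7 to 68.1 in dehydrated siz1-3, 111 to 141 in siz1-3 controls, 64.7 to 126 in dehydrated Col-0 and 132 to 207 in Col-0 controls. The mesophyll pair summed to 11612 to 12582 in dehydrated siz1-3, 17415 to 19900 in siz1-3 controls, 15761 to 16498 in dehydrated Col-0 and 20650 to 21584 in Col-0 controls. The root genes summed to 475 to 519 in dehydrated siz1-3, 651 to 752 in siz1-3 controls, 721 to 1146 in dehydrated Col-0 and 916 to 997 in Col-0 controls. The epidermis sum was mostly FAMA, with group means of 49 to 159, against 2.74 to 12.8 for MUTE. The root sum was mostly PYK10, as EXPA7, EXPA18 and PER57 had group means of 2.33 to 27.8. In bulk samples, fewer cells of a type and less RNA per cell cannot be told apart. The part of cell composition in the results was not tested.

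DEWAX was a bright gene under control conditions and much reduced after dehydration. Its signal, on the authors' linear array scale, was 170.0, 224 and 226 in dehydrated siz1-3 plants, against 2644, 2920 and 2509 in siz1-3 controls. In dehydrated Col-0 plants it was 145, 126 and 121, against 3316, 2824 and 3161 in Col-0 controls. The 6 dehydrated arrays lay far below the 6 controls, and all 3 dehydrated siz1-3 arrays lay above all 3 dehydrated Col-0 arrays. The control arrays of the genotypes overlapped.

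DEWAX2 was dimmer on its probe set, and its order after dehydration was the reverse. Its signal was 54, 44.7 and 44.1 in dehydrated siz1-3 plants, against 807, 1112 and 862 in siz1-3 controls. In dehydrated Col-0 plants it was 101, 96.8 and 111, against 963, 898 and 989.5 in Col-0 controls. Here all 3 dehydrated siz1-3 arrays lay below all 3 dehydrated Col-0 arrays, and the controls again overlapped. The lowest of the 24 member signals was 44.1. Signals are set against each other within a probe set and not between the 2 probe sets, which can differ in brightness for the same amount of RNA.

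**Figure D1:**
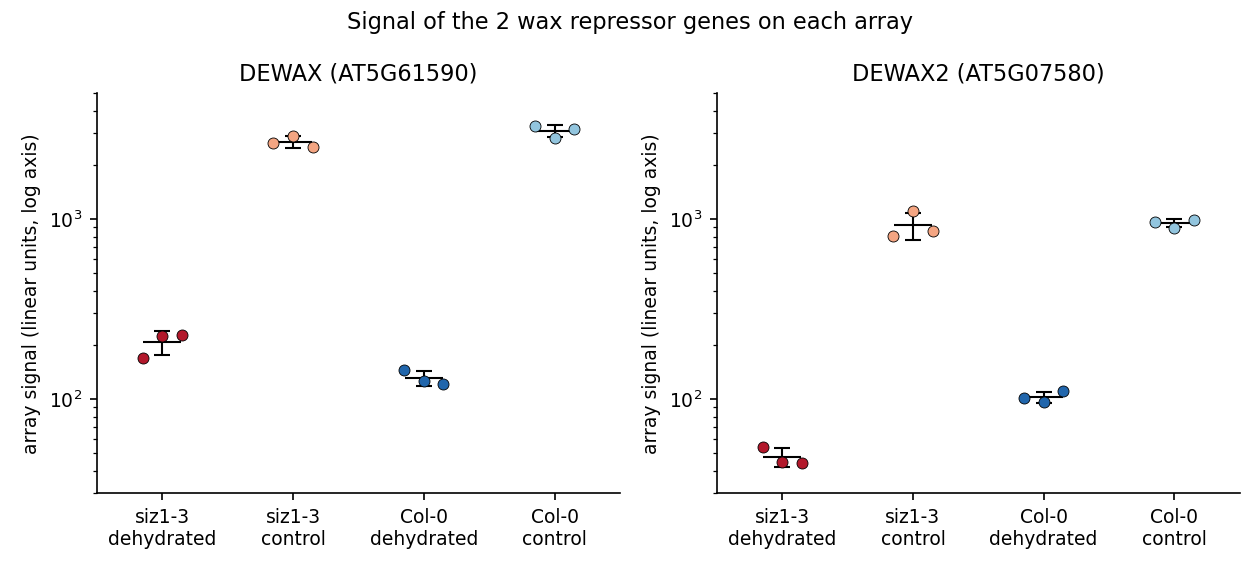
Array signal (linear units on a log axis) of DEWAX and DEWAX2 in the 4 groups, with a point for each array and a bar for the group mean ± SD (n = 3). Dehydrated arrays lie far below controls for both genes, with DEWAX higher and DEWAX2 lower in dehydrated siz1-3 than in dehydrated Col-0.

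DEWAX averaged 207 ± 31.9 in dehydrated siz1-3 plants and 2691 ± 209.7 in siz1-3 controls (SD, n = 3 each), so 7.69% of the control level was left, a 13-fold fall. In Col-0 it averaged 131 ± 12.5 after dehydration and 3100 ± 251 in controls (SD, n = 3 each), which left 4.22%, a 23.7-fold fall. DEWAX2 averaged 47.6 ± 5.56 in dehydrated siz1-3 plants and 927 ± 162 in siz1-3 controls (SD, n = 3 each), leaving 5.13%, a 19.5-fold fall. In Col-0 it averaged 103 ± 7.21 after dehydration and 950.1 ± 47.4 in controls (SD, n = 3 each), leaving 10.8%, a 9.24-fold fall. The control level was thus reduced most for DEWAX in Col-0 and least for DEWAX2 in Col-0, with both siz1-3 values between them.

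On the scale of log2(signal + 16), which understates the change of dim genes, DEWAX fell by 3.61 ± 0.13 in siz1-3 and by 4.41 ± 0.13 in Col-0 (difference ± SE from a limma fit to all 12 arrays). DEWAX2 fell by 3.88 ± 0.13 in siz1-3 and by 3.02 ± 0.13 in Col-0. Across the 22746 probe sets tested, the median difference on dehydration was -0.16 in siz1-3 and -0.09 in Col-0. In siz1-3, 26 probe sets had a lower value than DEWAX and 16 a lower value than DEWAX2. In Col-0, 8 had a lower value than DEWAX and 75 a lower value than DEWAX2. A probe set was called where its limma p, adjusted by Benjamini-Hochberg over all probe sets, was under 0.05. Calls were frequent, at 47.1% of probe sets in siz1-3 (31.8% lower) and 37.1% in Col-0 (23.5% lower). The share of calls that were higher depended on the scaling, at 32.5% in siz1-3 and 36.6% in Col-0 as deposited, 44.4% and 45.8% with quantile normalization, and 62% and 58.7% with array medians subtracted.

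Without stress, the genotypes were close. The siz1-3 control mean was 86.8% of the Col-0 control mean for DEWAX, a log2 difference of -0.20 ± 0.13 (SE), and 97.6% for DEWAX2, a log2 difference of -0.05 ± 0.13. After dehydration, DEWAX was 1.58-fold higher in siz1-3 than in Col-0, a log2 difference of 0.59 ± 0.13. DEWAX2 in dehydrated siz1-3 was 46.3% of its level in dehydrated Col-0, a log2 difference of -0.90 ± 0.13. Over all probe sets, 17.4% were called between genotypes under control conditions and 31.5% after dehydration.

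The interaction of genotype and dehydration is the response in siz1-3 minus the response in Col-0. It was 0.80 ± 0.19 on the log2 scale (SE) for DEWAX, a smaller fall in siz1-3, and -0.86 ± 0.19 for DEWAX2, a larger fall in siz1-3. The middle of all probe sets, between the 5th and 95th percentiles, ran from -0.78 to 0.74, so both genes lay just outside it, on opposite sides. For DEWAX, 995 probe sets had a higher interaction, and for DEWAX2, 848 had a lower one. Of all probe sets, 8.81% were called for the interaction, and the share of these that were higher was 43.6% as deposited, 52.2% with quantile normalization and 65.9% with array medians subtracted.

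A shift of a whole array on the log2 scale cancels in the difference between both genes on that array. The change of DEWAX minus the change of DEWAX2 on dehydration was 0.27 ± 0.17 in siz1-3 and -1.38 ± 0.17 in Col-0 (log2, SE). Between the genotypes it was 1.50 ± 0.17 after dehydration and -0.16 ± 0.17 under control conditions. The interaction of this within-array difference was 1.65 ± 0.24. It was 1.44 with quantile normalization, which is not such a shift, and 1.92 with a floor of 32, both computed after seeing the data. On the controls the genotypes differed in this distance by less than its standard error. The distance combines the values by which both genes were chosen, so its size is a description, and the part of scaling was not tested.

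**Figure D2:**
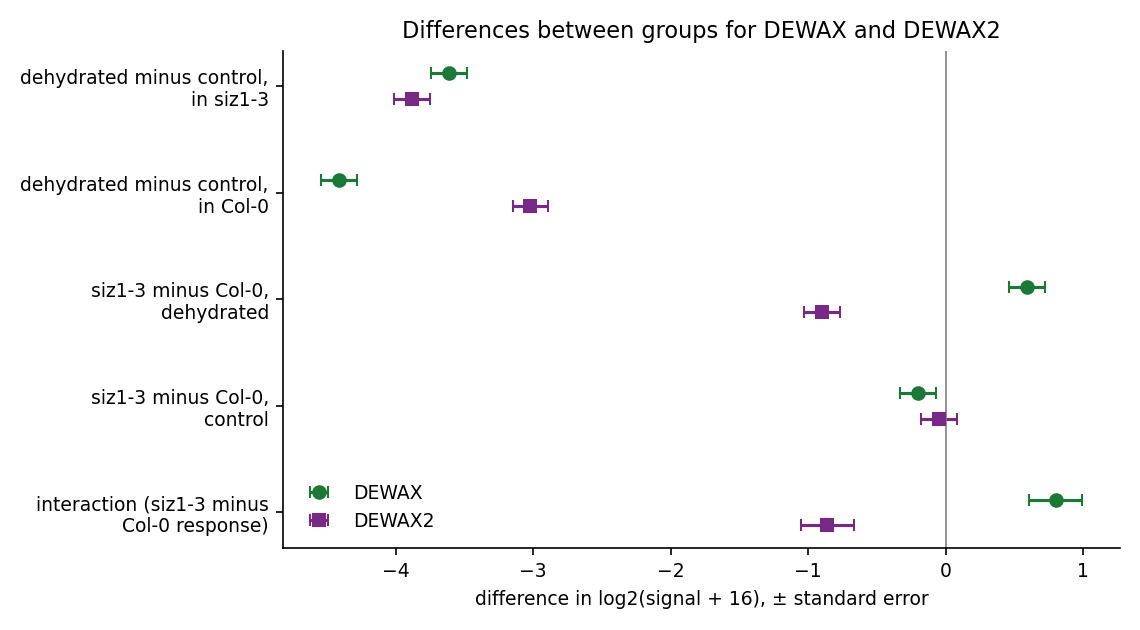
Differences in log2(signal + 16) of DEWAX and DEWAX2 with their standard errors for the 5 comparisons, 3 arrays in each group. Both genes lie near -3 to -4.4 for dehydration in either genotype and on opposite sides of 0 for the genotypes after dehydration and for the interaction.

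Wax synthesis genes were examined next, as the class of genes that DEWAX is known to repress. Of 26 genes listed for wax synthesis, 7 had a probe set of their own. After dehydration, 1 of the 7 was called higher and 4 lower in siz1-3, beside 15.3% and 31.8% of all probe sets, a split that turned to 3 higher and 2 lower with array medians subtracted. In Col-0, 2 were called higher, WSD1 and AT1G02190, and 1 lower, beside 13.5% and 23.5%. AT1G02190 was at most 21.4 on any array and lost its call with a floor of 32. With array medians subtracted, ACLA3 was called higher in Col-0, by 0.39 (log2; limma adjusted p = 0.0218). The median difference of the list was -0.40 in siz1-3, against -0.16 over all probe sets, and -0.02 in Col-0, against -0.09. Between dehydrated plants, 5 of 7 were lower in siz1-3 than in Col-0 and none higher, beside 19.1% and 12.4% of all probe sets, with a list median of -0.59 against -0.10. Under control conditions, none was called higher and 2 lower in siz1-3, beside 8.9% and 8.49%, and with a pseudocount of 1 it was 1 higher, WSD1, and none lower. The genes called lower on dehydration in siz1-3, and between dehydrated plants, include ACLA1, ACLA2 and ACLB1. These are subunits of a single enzyme, ATP-citrate lyase, so those counts rest largely on 1 enzyme. The genes are described next.

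CER26, an acyltransferase-like protein needed to elongate the longest fatty acids of leaf wax, fell in both genotypes. Its signal was 177, 191 and 185 in dehydrated siz1-3, against 575, 693 and 717 in siz1-3 controls, and 318, 249 and 292 in dehydrated Col-0, against 957, 779.9 and 964 in Col-0 controls. Every dehydrated array lay below every control, and siz1-3 lay below Col-0 in each condition. CER26 changed by -1.75 ± 0.13 in siz1-3 (log2, SE; limma adjusted p = 3.37e-07) and by -1.60 ± 0.13 in Col-0 (adjusted p = 9.49e-07). It was lower in dehydrated siz1-3 than in dehydrated Col-0 by a log2 difference of -0.59 ± 0.13 (limma adjusted p = 0.00475). The control difference of -0.43 ± 0.13 (limma adjusted p = 0.041) lost its call in 10 of 19 other settings.

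WSD1, the enzyme that joins alcohols and acids into wax esters, rose on dehydration, with control signals that cannot be told from background. Its signal was 35.3, 53.5 and 57.5 in dehydrated siz1-3, against 5.92, 9.43 and 18.4 in siz1-3 controls. It was 121, 147 and 99.2 in dehydrated Col-0, against 2.09, 2.1 and 5.39 in Col-0 controls. All dehydrated arrays lay above all controls, and the dehydrated siz1-3 arrays lay below the dehydrated Col-0 arrays. WSD1 rose by 1.26 ± 0.19 in siz1-3 (log2, SE; limma adjusted p = 0.000156) and by 2.84 ± 0.19 in Col-0 (adjusted p = 1.69e-07). The rise was smaller in siz1-3, with an interaction of -1.58 ± 0.28 (limma adjusted p = 0.00415). As the control signals are at background, the size of these log2 values depends on the pseudocount: the interaction was -2.83 with a pseudocount of 1 (limma adjusted p = 0.022) and -1.34 with a floor of 32 (adjusted p = 0.0151). WSD1 was the 1 measured wax synthesis gene called for the interaction, beside 8.81% of all probe sets.

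ATP-citrate lyase splits citrate in the cytosol into the acetyl-CoA from which fatty acids are elongated, and its A subunits ACLA1, ACLA2 and ACLA3 and B subunit ACLB1 were measured. ACLA2, which is reported as a direct target lowered by DEWAX, had signals of 187, 188 and 175 in dehydrated siz1-3, against 275, 316 and 331 in siz1-3 controls. It had 249, 287 and 275 in dehydrated Col-0, against 346, 299 and 289 in Col-0 controls. The dehydrated siz1-3 arrays lay below all 9 others. ACLA2 fell by 0.69 ± 0.12 in siz1-3 (log2, SE; limma adjusted p = 0.000284), while its difference in Col-0 was -0.19 ± 0.12 (adjusted p = 0.233). The difference between those responses was -0.50 ± 0.16 (limma adjusted p = 0.0811), past the threshold with a floor of 32 (adjusted p = 0.0333) and among the brighter 60% of probe sets (adjusted p = 0.0392).

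ACLB1 had 404, 375 and 307 in dehydrated siz1-3, against 536, 607 and 553 in siz1-3 controls, and 707, 564 and 680.3 in dehydrated Col-0, against 759, 746 and 768 in Col-0 controls. Its log2 difference on dehydration was -0.63 ± 0.13 in siz1-3 (SE; limma adjusted p = 0.00133, or 0.0895 after subtraction of array medians) and -0.22 ± 0.13 in Col-0 (adjusted p = 0.211). ACLA1 averaged 1142 ± 48.3 in dehydrated siz1-3, 1514 ± 76.6 in siz1-3 controls, 1761 ± 47.3 in dehydrated Col-0 and 1784 ± 49.8 in Col-0 controls (SD, n = 3 each). Its log2 difference in siz1-3 was -0.40 ± 0.10 (SE; limma adjusted p = 0.00423, or 0.652 after subtraction of array medians). Between dehydrated plants, ACLA1, ACLA2 and ACLB1 were lower in siz1-3, by log2 differences of -0.62, -0.52 and -0.82 (limma adjusted p = 0.000402, 0.0042 and 0.000383). ACLB1 was also called lower in siz1-3 between control plants, by -0.41 ± 0.13 (limma adjusted p = 0.0429, lost in 9 of 19 other settings). ACLA3 had a log2 difference of 0.32 ± 0.12 (SE; limma adjusted p = 0.0652) between dehydrated plants and of 0.31 ± 0.12 on dehydration in siz1-3 (adjusted p = 0.0507). These were called higher in 5 and 4 of 19 other settings, with array medians subtracted at 0.42 (limma adjusted p = 0.0193) and 0.66 (adjusted p = 0.00064).

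**Figure D3:**
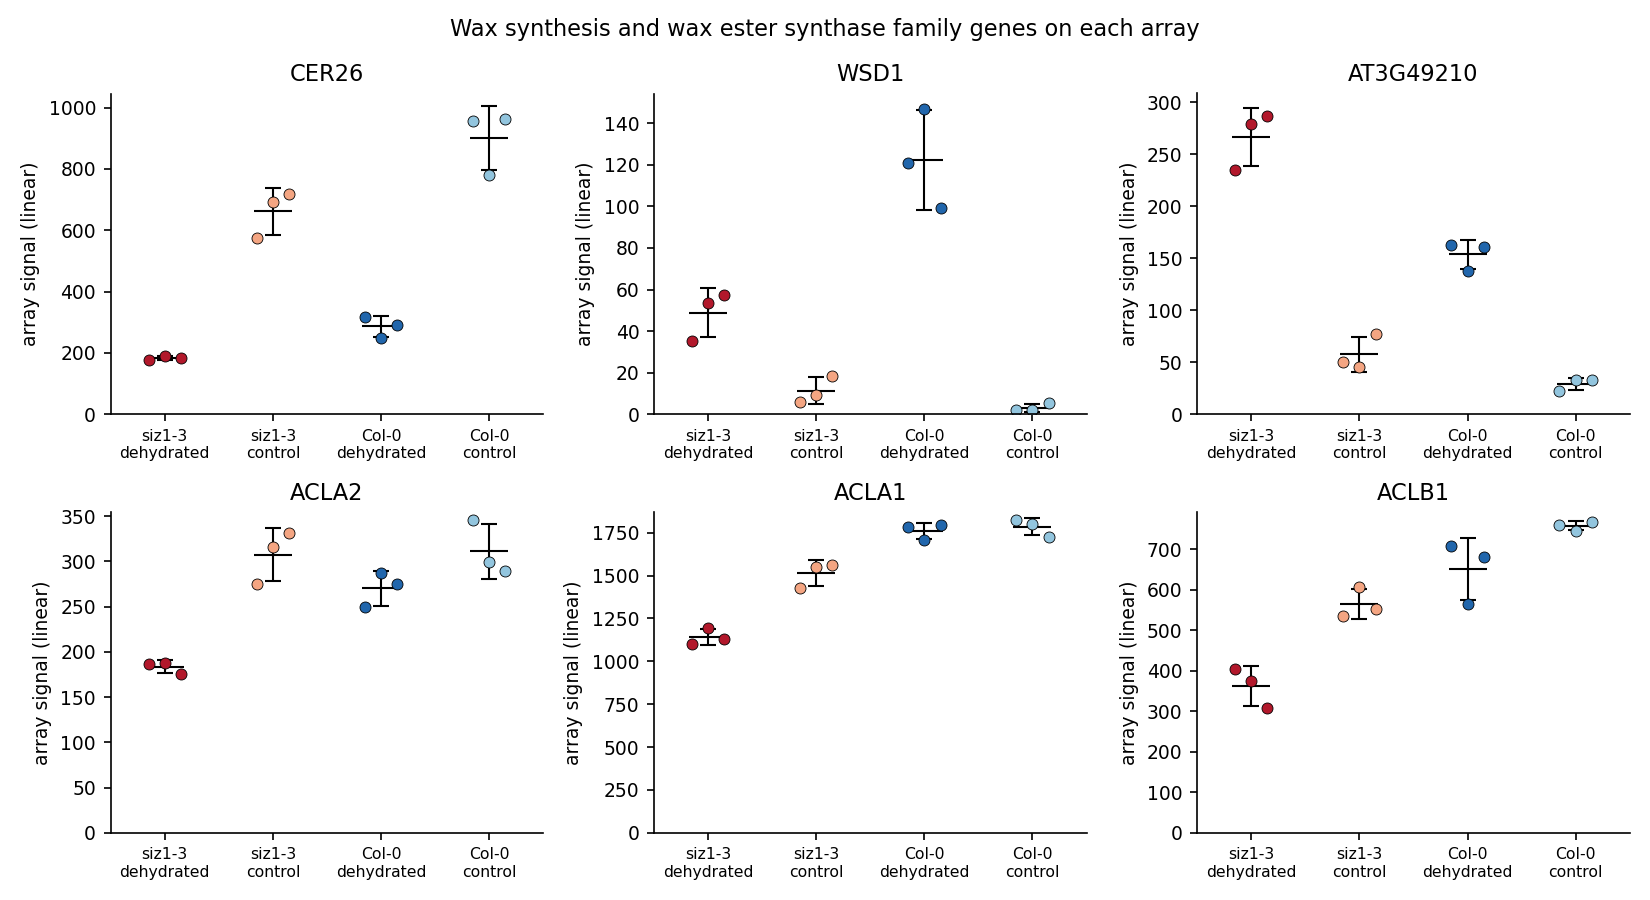
Array signal (linear axis starting at 0) of 5 wax synthesis genes and of AT3G49210 of the wax ester synthase family, with a point for each array and a bar for the group mean ± SD (n = 3). CER26 falls and WSD1 and AT3G49210 rise in both genotypes, and ACLA2, ACLA1 and ACLB1 are lowest in dehydrated siz1-3.

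AT1G02190, a relative of the alkane-forming gene CER1, stayed between 1.65 and 21.4 on all arrays. Its log2 difference in Col-0 was 0.58 ± 0.19 (SE; limma adjusted p = 0.0271), a call lost in 6 of 18 other settings, and in siz1-3 it was 0.48 ± 0.19 (adjusted p = 0.0507), called in 5 of 18. WSD1 has close relatives, of which 4 of 10 had a probe set of their own. In dehydrated siz1-3, AT3G49210 had 235, 279 and 287, against 50.2, 45.3 and 77.1 in siz1-3 controls. In dehydrated Col-0 it had 163, 138 and 161, against 22.6, 32.5 and 32.5 in Col-0 controls. It rose by 1.96 ± 0.17 in siz1-3 (log2, SE; limma adjusted p = 8.24e-07) and by 1.92 ± 0.17 in Col-0 (adjusted p = 1.33e-06), with an interaction of 0.05 ± 0.23 (adjusted p = 0.938). Unlike WSD1, AT3G49210 was higher in dehydrated siz1-3 than in dehydrated Col-0, by 0.73 (limma adjusted p = 0.0047). It was also higher between control plants, by 0.69 (limma adjusted p = 0.0118, lost in 2 of 19 other settings). AT5G12420 had 59.1, 72.1 and 87.5 in dehydrated siz1-3, against 118, 149 and 166 in siz1-3 controls, while all 6 Col-0 arrays lay between 65.4 and 79.2. It fell by 0.85 ± 0.15 in siz1-3 (log2, SE; limma adjusted p = 0.000364), and between control plants it was higher in siz1-3 by 0.80 ± 0.15 (adjusted p = 0.00208). Neither of the remaining relatives was called in any comparison.

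Of 9 genes reported to respond to DEWAX or DEWAX2, ACLA2 and a pair reported as raised by DEWAX had their own probe sets. The peroxidase gene PRX37 had 21.2, 20.2 and 18.2 in dehydrated siz1-3, against 37.9, 49 and 47.5 in siz1-3 controls. In Col-0 its arrays overlapped, with 15.4, 11.4 and 30.2 after dehydration and 25.3, 17 and 7.17 in controls. The log2 difference of PRX37 on dehydration was -0.76 ± 0.22 in siz1-3 (SE; limma adjusted p = 0.0115) and 0.11 ± 0.22 in Col-0 (adjusted p = 0.748), with an interaction of -0.87 ± 0.31 (adjusted p = 0.106). The siz1-3 call was lost with quantile normalization (-0.47, limma adjusted p = 0.0857), with array medians subtracted (-0.41, adjusted p = 0.131) and with a pseudocount of 1 (adjusted p = 0.0538). Between control plants PRX37 was higher in siz1-3 by 0.94 ± 0.22 (limma adjusted p = 0.00902). Its signals outside the siz1-3 controls were at most 30.2 and cannot be told from background. The size of its differences thus depends on the pseudocount, with -1.13 on dehydration in siz1-3 at a pseudocount of 1. The defensin gene PDF1.2a was not called in any comparison, and 1 of its dehydrated Col-0 arrays, replicate 3, stood at 1246 against 125 and 184 for the others. Its Col-0 difference was -0.33 ± 0.63 (log2, SE; limma adjusted p = 0.739), and -1.30 without that array (adjusted p = 0.0105). In the annotation used, none of the genes listed for wax export (4) or cutin (12) had its own probe set. Of 14 listed wax regulators, the activator gene SHN3 had one. SHN3 had 22.5, 21.9 and 18.5 in dehydrated siz1-3, against 3.19, 27.1 and 34.3 in siz1-3 controls, and 6.2, 31.4 and 6.33 in dehydrated Col-0, against 27.9, 39.8 and 29 in Col-0 controls. It was not called in any comparison. Its Col-0 difference of -0.74 ± 0.34 (log2, SE; limma adjusted p = 0.115) was called without dehydrated Col-0 replicate 2 (-1.11, adjusted p = 0.0187) and without siz1-3 control replicate 1 (adjusted p = 0.0375).

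Because DEWAX is known to follow light, clock and dark-induced genes were listed. In the annotation used, none of 9 dark-induced genes had its own probe set. Of 12 clock genes, only GI, which peaks late in the day, had one. GI had 145, 151 and 186 in dehydrated siz1-3, against 347, 516 and 360.3 in siz1-3 controls, and 304, 256 and 292 in dehydrated Col-0, against 724, 791 and 607 in Col-0 controls. Its log2 difference on dehydration was -1.25 ± 0.17 in siz1-3 (SE; limma adjusted p = 4.21e-05) and -1.26 ± 0.17 in Col-0 (adjusted p = 5.17e-05). The labels give no time of day, and the part of the clock and of light in the fall of DEWAX and DEWAX2 was not tested.

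The AP2/ERF family also holds the DREB activators of drought and cold genes. Of 121 other family members listed, 42 had a probe set of their own. After dehydration 12 of the 42 were called higher and 4 lower in siz1-3, beside 15.3% and 31.8% of all probe sets. In Col-0, 8 were called higher and 9 lower, beside 13.5% and 23.5%. With array medians subtracted, 17 were higher and 2 lower in siz1-3, and 10 higher and 6 lower in Col-0. The median difference was 0.01 in siz1-3, against -0.16 over all probe sets, and -0.14 in Col-0, against -0.09. None of the 42 had a lower value than DEWAX in either genotype. The gene with a lower value than DEWAX2 in Col-0 was ORA47, a regulator of jasmonate synthesis, and none had one in siz1-3.

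AT1G36060, AT1G77640 and AT4G31060 were the 3 genes called lower in both genotypes, of which AT1G36060 lost its call in Col-0 in 9 of 18 other settings and AT4G31060 its call in siz1-3 in 7 of 19, both scalings among them in each case. Of these, AT1G77640 had the largest differences, -1.74 ± 0.26 in siz1-3 and -1.31 ± 0.26 in Col-0 (log2, SE; limma adjusted p = 0.000133 and 0.00166), from control signals of 49.2 to 92.5. Another 7 were called higher in both. AT4G28140 had the largest rise, with 5570, 5596 and 6143 in dehydrated siz1-3, against 132, 197 and 116 in siz1-3 controls. In Col-0 it had 4094, 4172 and 3000 after dehydration, against 122, 122 and 119.8 in controls. AT4G28140 rose by 5.16 ± 0.18 in siz1-3 (log2, SE; limma adjusted p = 7.95e-10) and by 4.77 ± 0.18 in Col-0 (adjusted p = 1.28e-09). AT1G19210 and ORA47 were called higher in siz1-3 and lower in Col-0. ORA47 had 276, 272 and 221 in dehydrated siz1-3, against 99.3, 111 and 78.8 in siz1-3 controls, and 185, 182 and 223 in dehydrated Col-0, against 2196, 1323 and 1797 in Col-0 controls.

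For the interaction, 8 of the 42 had a higher value than DEWAX and 1, AT4G32800, a lower value than DEWAX2. AT4G32800 had 286, 231 and 289 in dehydrated siz1-3, against 171, 246 and 185 in siz1-3 controls, and 485, 364 and 385 in dehydrated Col-0, against 89.7, 93.3 and 116 in Col-0 controls. Its interaction was -1.48 ± 0.23 (log2, SE; limma adjusted p = 0.00222). Altogether 5 of 42 were called for the interaction, 3 higher and 2 lower, beside 3.84% and 4.96% of all probe sets. The subgroup IX of the family, to which DEWAX and DEWAX2 belong, had 2 of 15 other listed members with their own probe sets, AT4G18450 and AT5G43410, both with group means of at most 12.7 and neither called.

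**Figure D4:**
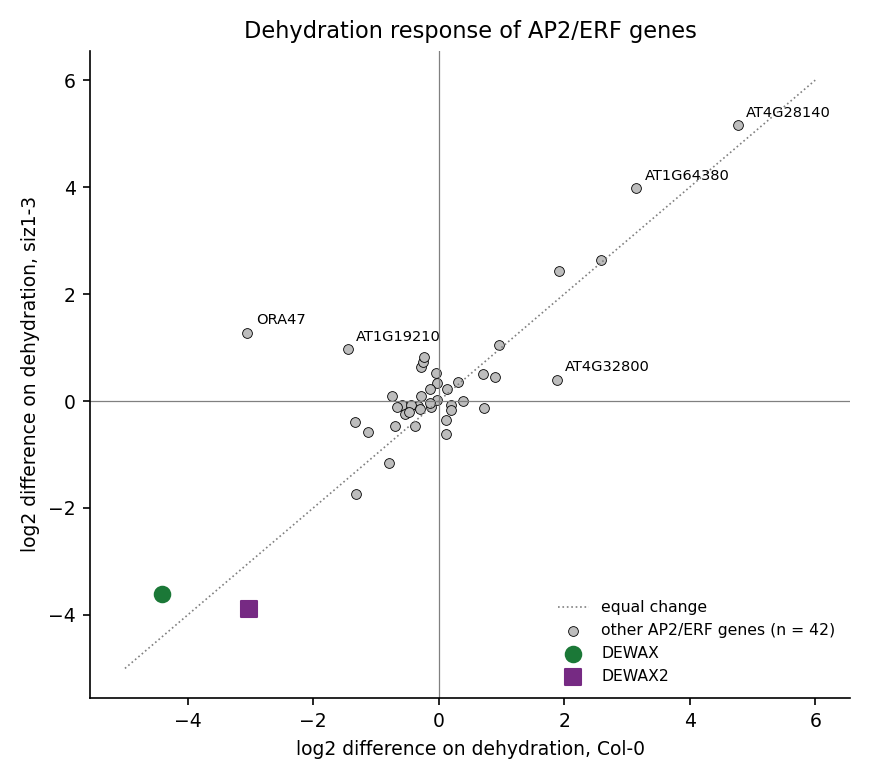
Log2 difference on dehydration in siz1-3 (vertical) against Col-0 (horizontal) for DEWAX, DEWAX2 and the 42 other AP2/ERF genes with a probe set of their own, each from 3 against 3 arrays. DEWAX lies above and DEWAX2 below the dotted line of equal change, both at the lower left, as genes chosen for their fall. ORA47 fell about as far as DEWAX2 in Col-0 but rose in siz1-3.

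The genes whose signals ran most like each member were found by Pearson's r over the 12 arrays, among 5979 probe sets of single genes brighter than the median. All points are shared arrays in 4 groups, so r mainly describes the pattern of the group means. The 5 most like DEWAX were AT3G10020 (r = 0.998), AT3G15630 (0.995), AT1G71020 (0.992), AT4G27450 (0.992) and AT4G36550 (0.990). The 5 most like DEWAX2 were AT1G60000 (r = 0.997), AT5G52780 (0.995), AT5G23920 (0.995), AT1G29660 (0.994) and TMT1 (0.994), a vacuolar sugar transporter gene. DEWAX and DEWAX2 correlated at 0.955, and 130 candidates were closer to DEWAX than DEWAX2 was, while 371 were closer to DEWAX2 than DEWAX was.

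AT3G10020 averaged 479.9 ± 11.3 in dehydrated siz1-3, 2735 ± 167 in siz1-3 controls, 346 ± 37.2 in dehydrated Col-0 and 3117 ± 154 in Col-0 controls (SD, n = 3 each). AT3G15630 averaged 285 ± 22.8 in dehydrated siz1-3, 2150 ± 74 in siz1-3 controls, 202 ± 19.1 in dehydrated Col-0 and 2654 ± 246 in Col-0 controls (SD, n = 3 each). Like DEWAX, both were higher in dehydrated siz1-3 than in dehydrated Col-0. AT1G29660 averaged 39.4 ± 5.4 in dehydrated siz1-3, 1638 ± 119 in siz1-3 controls, 139 ± 27.6 in dehydrated Col-0 and 2268 ± 82 in Col-0 controls (SD, n = 3 each). AT5G52780 averaged 47.8 ± 5.28 in dehydrated siz1-3, 914 ± 95.6 in siz1-3 controls, 100.1 ± 13.2 in dehydrated Col-0 and 753 ± 66.3 in Col-0 controls (SD, n = 3 each). Like DEWAX2, both were lower in dehydrated siz1-3 than in dehydrated Col-0. These genes were picked for this likeness, so their differences are a description. With quantile normalization, 3 of the 5 genes most like DEWAX and 4 of the 5 most like DEWAX2 were the same.

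**Figure D5:**
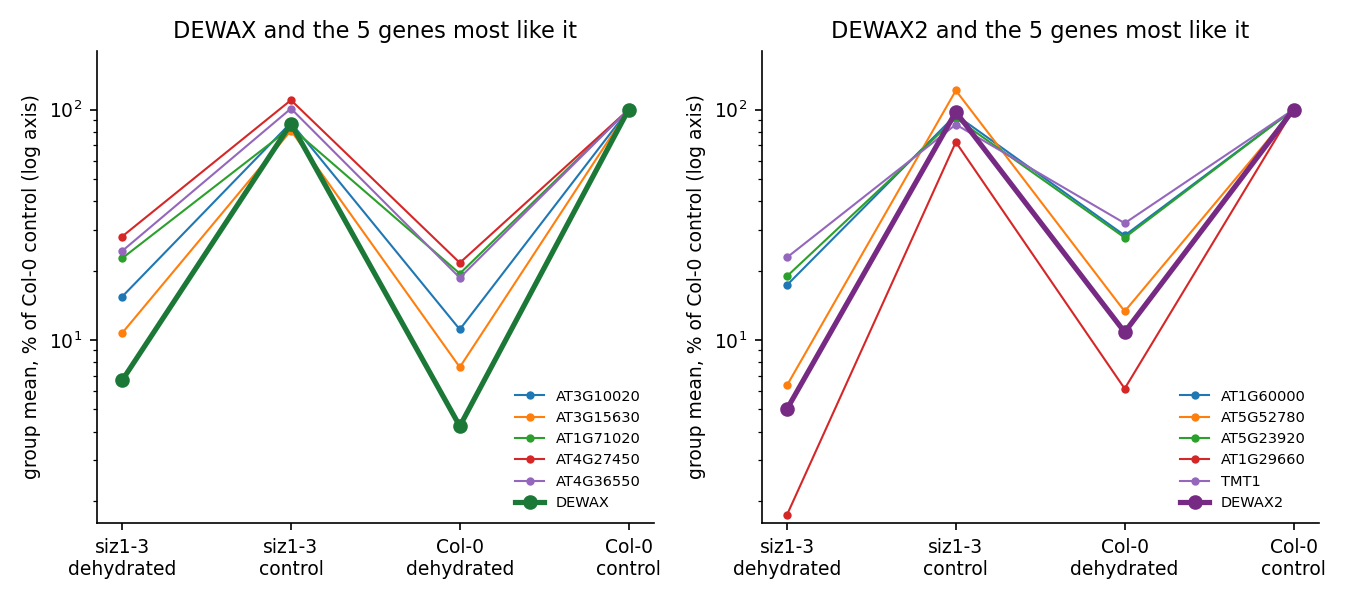
Group means as a percentage of the Col-0 control mean (log axis, n = 3 arrays each) for DEWAX and DEWAX2, drawn thick, and for the 5 genes most like each. Between the dehydrated groups, the genes at left are higher in siz1-3 than in Col-0 and those at right lower.

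Both genes lie on chromosome 5, and the 3 protein-coding neighbours on each side were read from the TAIR10.1 annotation. Next to DEWAX lie PFK4, a phosphofructokinase gene, and ERF104, another AP2/ERF gene, neither of which has its own probe set in the annotation used. Of the other 4 neighbours of DEWAX, 3 were measured. None of the 3 was called lower on dehydration, beside 31.8% of all probe sets in siz1-3 and 23.5% in Col-0. AT5G61570 had a mean of 51.4 ± 2.49 in dehydrated siz1-3, 24.1 ± 3.91 in siz1-3 controls, 36.2 ± 4.83 in dehydrated Col-0 and 42.3 ± 7.4 in Col-0 controls (SD, n = 3 each). It rose by 0.75 ± 0.13 in siz1-3 (log2, SE; limma adjusted p = 0.000349), and its difference in Col-0 was -0.16 ± 0.13 (adjusted p = 0.399). AT5G61560 averaged 165 ± 25.9 in dehydrated siz1-3 and 68.6 ± 13.1 in siz1-3 controls (SD, n = 3 each; limma adjusted p = 0.000504), and its difference in Col-0 was 0.20 ± 0.20 (log2, SE; adjusted p = 0.478). Between dehydrated plants, AT5G61560 was higher in siz1-3 by 1.54 ± 0.20 (log2, SE; limma adjusted p = 8.39e-05), the direction of DEWAX. AT5G61570 was higher there by 0.37 ± 0.13 (limma adjusted p = 0.0453, lost in 8 of 18 other settings). The remaining measured neighbour, AT5G61605, had a difference of -0.24 ± 0.29 (limma adjusted p = 0.582).

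AT5G07590, the gene next to DEWAX2, fell with it. It averaged 24 ± 6.95 in dehydrated siz1-3, against 109 ± 18.4 in siz1-3 controls, and 51 ± 7.47 in dehydrated Col-0, against 143 ± 10.3 in Col-0 controls (SD, n = 3 each). Every dehydrated array lay below the controls of its genotype. AT5G07590 changed by -1.64 ± 0.15 in siz1-3 (log2, SE; limma adjusted p = 2.24e-06) and by -1.25 ± 0.15 in Col-0 (adjusted p = 3.22e-05). Between dehydrated plants it was lower in siz1-3 by a log2 difference of -0.75 ± 0.15 (limma adjusted p = 0.00262), the direction of DEWAX2, and its interaction was -0.39 ± 0.22 (adjusted p = 0.321). The other measured neighbour of DEWAX2, AT5G07570, had group means of 9.1 to 15.7 and was not called.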

How the data were processed

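Per the labels' protocols, total RNA was taken up with TriZOL and labelled with biotin (MessageAmp II-Biotin Enhanced) for Affymetrix arrays. The deposited table holds 1 linear intensity per probe set and array. The values show that the authors scaled each array, since its trimmed mean, with 2% cut at each end, was 250.02 to 250.03. Software and probe summary: not given in the sources used here. No detection calls were used, so a low signal cannot be told from background. Array medians were 65.5 to 88.2, and precision is limited by the number of arrays. The ratio of 3' to 5' control probe sets was 8.29 to 20.2 for actin and 1.08 to 1.74 for GAPDH. The part of RNA quality in the results was not tested.

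Of 22810 probe sets, 64 controls were left out and 22746 tested. Names came from the platform annotation, updated through RefSeq's TAIR10.1 gene table: 13513 probe sets pair with 1 gene (13436 matched), 503 with several and 8730 are unnamed here. For 144 genes with several probe sets, the brightest was used. No coordinates are given, because the build is not stated.

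Log2 of the signal plus a pseudocount of 16 was fitted with limma 3.58.1 (R 4.3.3), 1 mean per group over 12 arrays, with 8 residual and 4.141 prior degrees of freedom, without a replicate block. P-values were adjusted by Benjamini-Hochberg over all probe sets tested, and the procedure was tested on simulated data.

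The members and gene lists were chosen with earlier results of these data known. Lists of the AP2/ERF and wax ester synthase families and the chromosome neighbours were added after the annotation was read, with family members taken from general knowledge by locus code. Named were both members, all measured wax, cutin and reported-target genes, up to 4 genes of each other list with the largest differences in a comparison, and the 5 genes most like each member. AT1G36060, AT1G77640 and AT4G31060 were named to account for a count after their values were seen. Alternatives were 2 other scalings, a pseudocount of 1, a floor of 32, the upper 60% of probe sets by mean, a replicate block, only the groups compared, and leaving out each array.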

Additional observations from a re-analysis of the deposited data

Results flagged for a closer look

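The dehydration response differed between siz1-3 and Col-0 for 8 genes of the wax and AP2/ERF lists and the chromosome neighbours. The difference is the interaction term of the limma fit, adjusted over all probe sets (response in siz1-3 minus response in Col-0, log2). These were 1 of 7 wax synthesis genes, 1 of 4 relatives of WSD1, 5 of 42 AP2/ERF genes and 1 of the measured neighbours, beside 8.81% of all probe sets. Of the wax ester synthase genes, WSD1, whose control signals are at background so that the size depends on the pseudocount, had an interaction of -1.58 (limma adjusted p = 0.00415) and AT5G12420 of -0.80 (adjusted p = 0.0324, with a range of 0.011 to 0.0752 over 18 alternatives, 12 of which lost the call). Of the AP2/ERF genes, ORA47 had 4.33 (limma adjusted p = 9.51e-06), AT1G19210 2.42 (adjusted p = 0.00127) and AT1G64380 0.83 (adjusted p = 0.0376, lost in 11 of 18 alternatives). AT4G32800 had -1.48 (limma adjusted p = 0.00222) and AT2G44940 -0.73 (adjusted p = 0.0193, lost in 3 of 18 alternatives). AT5G61570, a chromosome neighbour of DEWAX, had 0.91 (limma adjusted p = 0.00963). Genes picked for their likeness to DEWAX or DEWAX2 are not counted here, since the pick used the same signals.

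AT1G64380 had 1118, 1033 and 985 in dehydrated siz1-3, against 43.6, 54.9 and 55.3 in siz1-3 controls, and 1905, 1767 and 1437 in dehydrated Col-0, against 184, 139.5 and 211 in Col-0 controls. AT2G44940 had 41.1, 32.2 and 30.6 in dehydrated siz1-3, against 59.3, 60.9 and 63.9 in siz1-3 controls, and 86.7, 104 and 81.8 in dehydrated Col-0, against 77, 87.6 and 81.8 in Col-0 controls. AT1G19210 had 52.1, 47.6 and 57 in dehydrated siz1-3, against 19.6, 11.6 and 26.7 in siz1-3 controls, and 22, 21.5 and 19.7 in dehydrated Col-0, against 127, 47.5 and 99 in Col-0 controls.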

How the results depend on the processing

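DEWAX and DEWAX2 kept the direction of their fall in both genotypes, of the dehydrated genotype difference and of the interaction under all alternatives run. The size moved by more than the replicate SD in the following cases (log2). In Col-0, DEWAX was at -4.19 with array medians subtracted, -4.56 with a pseudocount of 1 and -4.57 with a floor of 32, and DEWAX2 at -2.81, -3.20 and -3.21 in that order. In siz1-3, DEWAX was at -3.27 with medians subtracted, and DEWAX2 at -3.71 with quantile normalization, -3.54 with medians subtracted, -4.25 with a pseudocount of 1 and -4.28 with a floor. For siz1-3 against Col-0 after dehydration, DEWAX2 was at -1.10 with a pseudocount of 1 and -1.12 with a floor, and its interaction at -1.05 and -1.07. Leaving out single arrays gave interactions of 0.73 to 0.92 for DEWAX and -0.95 to -0.72 for DEWAX2.

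The median of all probe sets on dehydration shifted by 0.13 in siz1-3 and 0.08 in Col-0 with quantile normalization, and by 0.34 and 0.22 with medians subtracted. Interaction calls numbered 2003, and 1270 to 1885 without single arrays, with 1271 without dehydrated siz1-3 replicate 2 and 1270 without replicate 3. Called wax synthesis genes in Col-0 numbered 1 among the upper 60% of probe sets, where 5 were tested. Between control genotypes they numbered 1 with a pseudocount of 1 (WSD1, higher, while CER26 and ACLB1 lost their calls), 0 with the replicate block, 1 with only the groups compared and 0 to 2 without single arrays. For the interaction they numbered 3 with a floor. Called AP2/ERF genes, counted under settings chosen after seeing the data, numbered 11 in Col-0 among the upper 60% (15 tested) and 10 in siz1-3 with a floor. Between dehydrated genotypes they numbered 12, and 7 to 12 without single arrays, with 7 without dehydrated siz1-3 replicate 3. For the interaction they numbered 9 with a floor and 3 to 6 without single arrays, with 3 without dehydrated siz1-3 replicate 2 or 3. AT1G01250 had an interaction of 0.09, not called, and of -0.93 with a floor of 32 (limma adjusted p = 0.0158), where the floor replaces its siz1-3 control signals of 5.82 to 15.3.

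Replicate numbers are shared between groups and were not shown to pair the samples: deviations of same-numbered arrays correlated at -0.0443 to 0.132, with 1 of 18 pairs over 0.1, and 5 of 12 arrays correlated best with their own number. With the replicate block, DEWAX was at -3.61 in siz1-3 and -4.41 in Col-0, DEWAX2 at -3.88 and -3.02, and the interaction calls numbered 1783.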
